A study of Mus musculus with 23 samples.

Results

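The zinc finger genes that mouse nomenclature names Zfp and a number were followed through the inflammatory response of macrophages. All genes of the deposited table whose symbol is Zfp followed by a digit were taken, without Zfp36, Zfp36l1 and Zfp36l2, which carry fingers of another type and bind AU-rich RNA. This left 45 of 6397 genes. RNA-seq measured mRNA, and Ribo-seq, which sequences the ribosome-protected fragments (RPFs) of mRNA, measured ribosomes on coding sequence. The cells were bone-marrow-derived macrophages (BMDMs) of C57BL/6 mice, grown for 7 days in medium with L929 supplement, and were stimulated for 1, 2, 4 or 6 h with 100 ng/ml lipopolysaccharide (LPS), a bacterial cell wall component, or left unstimulated (0 h). Each time point had 2 replicates, called A and B, in each assay. No genotype differed between the time points, and a bulk library cannot tell fewer cells from less RNA per cell.

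A C2H2 zinc finger is a short fold in which a pair of cysteines and a pair of histidines hold a zinc ion, and proteins with several fingers in a row bind DNA, RNA or other proteins. Many such proteins are transcription factors, and a large subgroup carries a KRAB domain, which recruits the corepressor Trim28 and silences chromatin. Others serve in ribosome assembly, mRNA splicing, mitosis, ubiquitin and SUMO transfer. The name Zfp therefore does not group genes by a shared pathway, nor did every protein so named match the finger pattern counted below.

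The fingers were counted in the protein translated from the longest curated RefSeq coding sequence of each gene (GRCm38), as cysteine, 2 or 4 residues, cysteine, 12 residues, histidine, 3 to 5 residues, histidine. The counts ran from 0 in Zfp330 and Zfp703 to 30 in Zfp236, with 22 in Zfp26 and 25 in Zfp62. There were 14 genes with 1 to 4 fingers, 17 with 5 to 9 and 12 with 10 or more. A KRAB core was found in 6 proteins, those of Zfp26, Zfp110, Zfp382, Zfp715, Zfp871 and Zfp952, with 0 or 1 differences from the core. The other 39 had at least 6 differences, so none lay near the limit of 4. Only a short stretch of the KRAB domain was compared, so a KRAB domain that departs from this core would be missed. Genes without a KRAB core may therefore include some with a variant KRAB domain.

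Most of these mRNAs were scarce. Mean mRNA over the 10 RNA-seq libraries ran from 1.68 to 58.2 RPKM (reads normalised to gene length and library size) with a median of 8.09 RPKM, against 20.9 RPKM over all genes of the table, and 39 of the 45 lay under that median. For RPFs the means ran from 1.07 to 131 RPKM, with a median of 8.38 RPKM against 30.1 RPKM over all genes. A mean of at least 10 RPKM was reached by 15 of the 45 in mRNA, by 19 in RPFs and by 13 in both, and only 5 reached 10 RPKM in all 20 libraries. The 30 genes under that mean in mRNA were therefore also tested in a fit with no filter, whose background is given beside each count.

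The 5 most abundant mRNAs were those of Zfp655 (mean 58.2 RPKM), Zfp207 (49.3), Zfp263 (35.8), Zfp710 (35.5) and Zfp91 (30.5). Zfp655, known for binding the signalling protein Vav1, had 58.3 and 61.5 RPKM at 0 h, 103 and 100.3 after 1 h, 49.2 and 57.8 after 2 h, 29.1 and 33.4 after 4 h and 42.4 and 46.9 after 6 h. Of the RefSeq coding lengths tried, 330 nt, that of a short mRNA, brought its RPF values closest to whole reads. With it, 7 of 7 values under 40 reads were whole within 0.15 read. Its longest coding sequence has 1623 nt, so its first place in the order may rest on the length used.

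Precision differed between the assays. Low RPF values fell on whole reads (94.1 to 97.6% of low values per library within 0.06 read) when 548000 reads (6 h, replicate A) to 3480000 reads (4 h, replicate A) stood behind the RPKM of a library. The same search gave 12900000 to 31600000 reads for RNA-seq, with blurred steps (35.6 to 43.9% within 0.06 read). The median RPF count per library ran from 5.5 to 273 reads over the 45 genes, and 19 of 45 genes had a library with 5 or fewer reads. On the log2(RPKM + 1) scale the SD of the A minus B difference over the 45 genes was 0.10 to 0.27 in mRNA and 0.54 (4 h) to 1.22 (1 h) in RPFs, where 19 of 45 genes differed by more than 1 between the 1 h replicates. All 8 macrophage markers checked were in the table, with a summed mRNA level of 8305 to 13908 RPKM. Of the other markers, 0 of 6 for neutrophils, 0 of 6 for lymphocytes, 0 of 4 for erythroid cells, 0 of 4 for dendritic cells and 1 of 5 for fibroblasts (Col1a1, 0.362 to 1.36 RPKM) were. The lowest value of the table in any library was 0.0866 RPKM, so genes without reads in a library seem to be left out. Absence of a marker therefore does not measure purity. Tnf averaged 3476 RPKM at 1 h, against 57.5 RPKM at 0 h, as a check of the stimulation.

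How many of the Zfp mRNAs changed was asked first, with limma on log2(RPKM + 1) and adjusted p-values under 0.05 over all genes tested. At 1 h, 4 of the 15 genes past the filter were higher and 3 lower than at 0 h, against 7.72% higher and 9.12% lower of all genes tested. At 2 h, 4 were higher and 3 lower, against 15.7% and 37.7%. At 4 h, 3 were higher and 11 lower, against 24.3% and 51.7%, and without replicate A of 4 h 7 were lower. At 6 h, 4 were higher and 11 lower, against 26.1% and 54.9%.

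With no filter, all 45 genes entered the fit. At 1 h, 6 were higher and 16 lower (13.3 and 35.6%), against 6.53% and 12.2% of all 6397 genes, and the median change was −0.20 against −0.16. The count of 16 fell to 10 without replicate A and to 9 without replicate B of 1 h. At 2 h, 7 were higher and 16 lower (15.6 and 35.6%), against 13.3% and 42% of all genes, with medians of −0.17 and −0.25. Without replicate A of 2 h, 10 were lower. At 4 h, 5 were higher and 33 lower (11.1 and 73.3%), against 20.4% and 55.9%, and the median was −0.61 against −0.39. At 6 h, 6 were higher and 34 lower (13.3 and 75.6%), against 21.8% and 59.5%, with medians of −0.56 and −0.50. The share of lower Zfp genes thus stood above the background at 1 h, 4 h and 6 h and under it at 2 h.

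RPKM values are shares of a library, and the median of all 6397 genes was itself lower by 0.10, 0.13, 0.23 and 0.38 (log2) at 1, 2, 4 and 6 h. With each library centred on its median, 6 of the 45 were higher and 11 lower at 1 h (529 and 419 of all genes). For 2 h these counts were 9 and 12 (1104 and 1757 of all genes), for 4 h 7 and 26 (1801 and 2713), and for 6 h 8 and 22 (2138 and 2717).

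**Figure D1:**
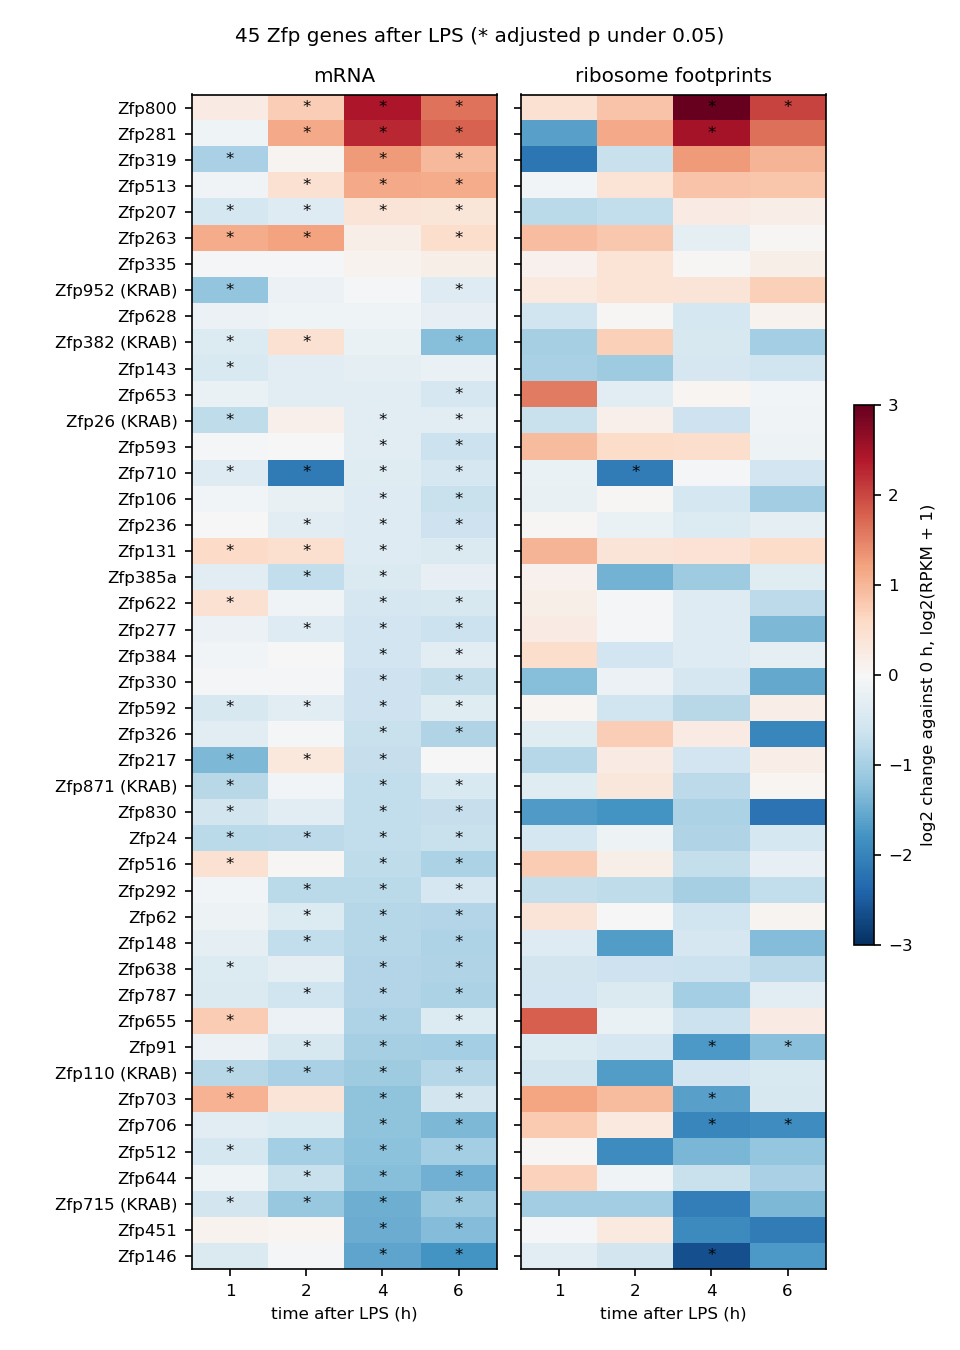
Log2 change of mRNA (left) and ribosome footprints (right) at 1, 2, 4 and 6 h against 0 h for 45 Zfp genes, in the order of the 4 h mRNA change. An asterisk marks an adjusted p under 0.05 (mRNA from the fit with no filter, footprints for the 19 genes past the filter). Zfp800 and Zfp281 stand at the top, Zfp451 and Zfp146 at the bottom, and 33 of 45 mRNAs were lower at 4 h.

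Between neighbouring time points the 15 genes past the filter gave 3 higher and 3 lower at 2 h against 1 h (background 12.2% and 10.7%), 4 higher and 10 lower at 4 h against 2 h (23.2% and 34.2%), and 2 higher and 2 lower at 6 h against 4 h (14.5% and 26.5%). In the fit with no filter 9 of 45 were higher and 12 lower at 2 h against 1 h (10.7% and 14.4% of all genes), 7 were higher and 24 lower at 4 h against 2 h (20.4% and 36.3%), and 5 were higher and 4 lower at 6 h against 4 h (13.8% and 27.2%). The count of lower genes was thus largest for 4 h against 2 h among these 3 steps. The 6 h against 4 h counts of the filtered fit varied when a library was left out, from 1 (without replicate B of 4 h or replicate A of 6 h) to 6 lower (without replicate A of 4 h). The 2 higher became 1 without replicate B of 4 h or either replicate of 6 h. Mean mRNA was highest at 0 h for 28 of the 45 genes (62.2%, against 55.7% of all genes), at 1 h for 7 (15.6% against 7.49%), at 2 h for 4 (8.89% against 7.71%), at 4 h for 5 (11.1% against 11.5%) and at 6 h for 1 (2.22% against 17.6%). It was lowest at 1 h for 11 of the 45 (24.4%, against 12.3% of all genes), and at 6 h for 19 (42.2% against 48.6%).

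Zfp800 and Zfp281 rose most. Zfp800 (chr6:28210548-28398033, minus strand), a factor with 6 fingers by the pattern, had 9.45 and 11.3 RPKM of mRNA at 0 h, 11.2 and 13.7 after 1 h, 16.9 and 18.9 after 2 h, 55.2 and 65.4 after 4 h and 30.7 and 37.7 after 6 h. Its mRNA was 5.40-fold higher at 4 h than at 0 h (log2 2.43 ± 0.14 SE, adjusted p = 2.79e-10), and 4 h stood above every other time point. Zfp281 (chr1:136624901-136630391, plus strand), which restrains pluripotency genes in embryonic stem cells, had 6.93 and 7.67 RPKM at 0 h, 6.64 and 6.66 after 1 h, 15.6 and 19 after 2 h, 35.2 and 42.6 after 4 h and 25.4 and 29.2 after 6 h. The 4 h mRNA was 4.79-fold higher than at 0 h (log2 2.26 ± 0.13, limma adjusted p = 2.81e-10), and the libraries of 2, 4 and 6 h all lay above those of 0 h. Both genes were lower at 6 h than at 4 h, Zfp800 with a log2 change of −0.80 ± 0.14, and Zfp281 with −0.49 ± 0.13, a call lost without replicate B of 4 h or replicate A of 6 h.

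Zfp319 and Zfp513 rose from low levels. Zfp319 mRNA had 2.96 and 1.81 RPKM at 0 h, 0.503 and 0.889 after 1 h, 2.70 and 2.36 after 2 h, 6.52 and 7.72 after 4 h and 5.43 and 5.72 after 6 h. It was lower at 1 h (log2 −0.98 ± 0.16) and 2.43-fold higher at 4 h (log2 1.28 ± 0.16) than at 0 h, with no overlap of libraries in either comparison. Zfp513, in human a factor tied to retinal disease, had 9.64 and 11.4 RPKM at 4 h, against 5.25 and 3.31 RPKM at 0 h (log2 1.14 ± 0.16). In Zfp207, which as BuGZ loads Bub3 onto kinetochores in mitosis, mRNA was 48.4 and 49.1 RPKM at 0 h, 34.5 and 32.5 after 1 h, 36.7 and 37.5 after 2 h, 59.7 and 68.5 after 4 h and 61.8 and 64.9 after 6 h. It was lower at 1 h (log2 −0.53 ± 0.11) and 2 h (log2 −0.39 ± 0.11), and higher at 4 h (log2 0.39 ± 0.11) and 6 h (log2 0.37 ± 0.11), and the libraries of each of these times lay apart from those of 0 h. The 2 h call was lost without replicate A of 2 h.

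A rise at 1 h, with no rise called at 4 h, was seen in Zfp263, Zfp703, Zfp655, Zfp131, Zfp622 and Zfp516. Zfp263, a factor with a SCAN domain, had 21.2 and 22.6 RPKM at 0 h, 45.5 and 51.7 after 1 h, 48.0 and 55.2 after 2 h, 25.5 and 24.6 after 4 h and 30.3 and 33.6 after 6 h. Its change was log2 1.11 ± 0.12 at 1 h and 1.20 ± 0.12 at 2 h, at 4 h it was not called (0.18), and at 6 h it was higher again (0.52 ± 0.12). Zfp703, a corepressor of the NET family and a luminal breast cancer oncogene in human, had 7.07 and 4.53 RPKM at 0 h, 10.9 and 14.8 after 1 h, 7.24 and 8.30 after 2 h, 1.72 and 2.11 after 4 h and 3.29 and 3.78 after 6 h. It was 2.05-fold higher at 1 h (log2 1.03 ± 0.17) and 0.436-fold at 4 h (log2 −1.20 ± 0.17), and the 1 h and 4 h libraries lay on opposite sides of those at 0 h. Zfp655 followed the same order, with log2 0.75 ± 0.12 at 1 h and −0.92 ± 0.12 at 4 h.

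Zfp131, a BTB domain factor, rose by log2 0.58 ± 0.12 at 1 h and 0.49 ± 0.12 at 2 h, with 19.4 and 19.5 RPKM at 1 h, against 12.2 and 13 RPKM at 0 h. It was lower at 4 h (log2 −0.39 ± 0.12, adjusted p = 0.00871 from limma), a call lost without replicate A of 4 h. Zfp622, whose yeast counterpart Rei1 acts on the large ribosomal subunit in the cytoplasm, had 23.4 and 24.4 RPKM at 1 h, against 16.2 and 18.2 RPKM at 0 h (log2 0.46 ± 0.13). This call was lost without replicate A of 0 h or either replicate of 1 h. Zfp516, known from brown fat where it drives Ucp1, had 12.6 and 13.1 RPKM at 1 h, against 9.41 and 8.71 RPKM at 0 h (log2 0.46 ± 0.12), and that call was lost without replicate B of 0 h or of 1 h. At 4 h Zfp622 (log2 −0.51 ± 0.13) and Zfp516 (log2 −0.76 ± 0.12) were both lower than at 0 h.

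The 6 genes with a KRAB core were all lower at 1 h. They were called 6 of 6 with no filter (background 12.2%), against 10 of the 39 without a KRAB core, and their median change was −0.79 against −0.18. The classes were set by protein sequence, and no test between them was run. Zfp952 had 0.951 and 0.960 RPKM at 1 h, against 2.98 and 3.98 RPKM at 0 h (log2 −1.19 ± 0.12). Zfp871 had 10.5 and 9.93 RPKM at 1 h, against 18.6 and 19.5 RPKM at 0 h (log2 −0.84 ± 0.11). Zfp26 had 3.47 and 3.62 RPKM at 1 h, against 6.13 and 7.35 RPKM at 0 h (log2 −0.76 ± 0.12). In each of these 3 the libraries of 1 h lay under both of 0 h.

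Zfp110 had 4.29 and 3.47 RPKM at 1 h, against 6.24 and 9.19 RPKM at 0 h (log2 −0.82 ± 0.15). Zfp715 had 9.58 and 9.48 RPKM at 1 h, against 13.7 and 15.0 RPKM at 0 h (log2 −0.54 ± 0.11). Zfp382 had 4.56 and 4.07 RPKM at 1 h, against 5.71 and 6.39 RPKM at 0 h (log2 −0.41 ± 0.13), and its call was lost on median centring and without either replicate of 0 h or 1 h. Its rise at 2 h against 0 h (log2 0.45) was lost without replicate A of 0 h or B of 2 h. By 2 h the 6 had parted. Against 1 h, Zfp952 was higher by log2 1.02 ± 0.12, Zfp26 by 0.90 ± 0.12, Zfp382 by 0.86 ± 0.13 and Zfp871 by 0.77 ± 0.11. Zfp715 was lower again (log2 −0.59 ± 0.11), and Zfp110 was not called (−0.16). At 4 h 0 of the 6 were higher and 4 were lower than at 0 h (background 20.4% and 55.9%), and the call of Zfp26 among these 4 was lost on median centring (−0.08), with library weights (−0.32) and without replicate B of 0 h or A of 4 h. At 6 h all 6 were lower (background 59.5%). On median centring Zfp26 (0.03) and Zfp952 (−0.01) were not called in the fit with no filter, and Zfp871 (−0.23) was not called in the filtered fit. The 6 h calls of Zfp26 and Zfp952 were also lost without replicate B of 0 h, and that of Zfp26 without replicate A of 6 h.

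**Figure D2:**
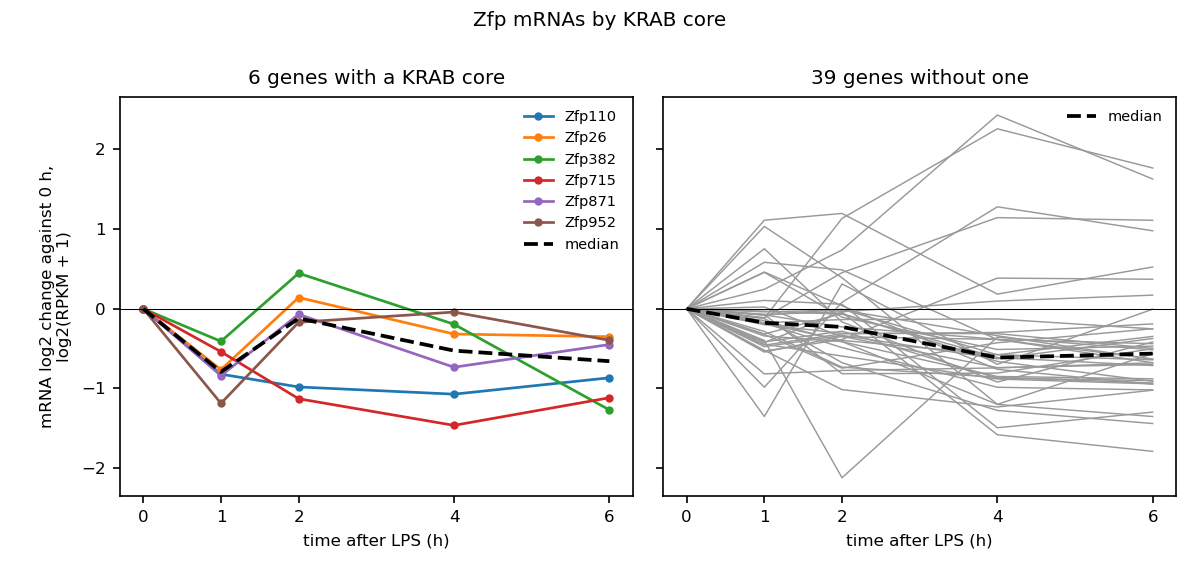
Log2 change of mRNA against 0 h over time for the 6 Zfp genes with a KRAB core (left, 1 line each) and the 39 without one (right, grey lines), with the median of each class as a dashed line. The median of the 6 stood at −0.79 at 1 h and −0.12 at 2 h, and that of the 39 at −0.18 and −0.23.

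Of the genes without a KRAB core, Zfp217 had the largest fall at 1 h on the log2(RPKM + 1) scale, which understates the change of low genes such as Zfp319. Zfp217, a partner of the CoREST and CtBP corepressors, had 11.1 and 11.6 RPKM at 0 h, 3.81 and 3.86 after 1 h, 14.2 and 14.5 after 2 h, 6.35 and 6.88 after 4 h and 11.2 and 11.4 after 6 h. It was 0.392-fold at 1 h (log2 −1.35 ± 0.11), 3.17-fold higher at 2 h than at 1 h (log2 1.66 ± 0.11), and lower again at 4 h (log2 −0.70 ± 0.11 against 0 h). The 2 h value was also above that at 0 h (log2 0.31 ± 0.11), a call lost without replicate A of 0 h or either replicate of 2 h. Zfp710 dipped at 2 h, with 54.7 and 48.3 RPKM at 0 h, 38.5 and 39 after 1 h, 11.4 and 10.7 after 2 h, 35.2 and 45.3 after 4 h and 36.3 and 35.1 after 6 h. The 2 h mRNA was 0.230-fold that at 0 h (log2 −2.12 ± 0.12, limma adjusted p = 8.1e-10), and the change at 4 h against 2 h was log2 1.76 ± 0.12. Both libraries of 2 h lay under all other libraries of Zfp710. Its smaller falls at 1 h (log2 −0.40 ± 0.12) and 4 h (−0.36 ± 0.12) were lost without replicate A of 0 h, among other libraries.

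At 6 h 34 of the 45 mRNAs were called lower with no filter, against 59.5% of all genes. On median centring 22 were lower, against 2717 of all 6397 genes. Zfp146, a protein made almost wholly of fingers, had 16.4 and 17 RPKM at 0 h, 13.3 and 11.2 after 1 h, 16.3 and 16.2 after 2 h, 3.99 and 6.04 after 4 h and 3.89 and 4.38 after 6 h. It was 0.334-fold at 4 h (log2 −1.58 ± 0.15) and 0.289-fold at 6 h (log2 −1.79 ± 0.15), and these libraries lay under all others. Zfp451, a SUMO ligase, had 1.96 and 3.07 RPKM at 4 h, against 8.22 and 9.36 RPKM at 0 h (log2 −1.49 ± 0.14). The fall of Zfp451 also came after 2 h, when its libraries held 9.46 and 8.88 RPKM.

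Zfp91, linked to ubiquitin and to the kinase NIK of the noncanonical NF-kB pathway, had 41.0 and 44.7 RPKM at 0 h, 38.9 and 36.4 after 1 h, 29.1 and 31.5 after 2 h, 19.6 and 22.7 after 4 h and 20.3 and 21.0 after 6 h. It was 0.505-fold at 4 h (log2 −0.98 ± 0.11) and 0.494-fold at 6 h (log2 −1.02 ± 0.11), with no overlap with 0 h. Zfp644, which brings the histone methyltransferases G9a and GLP to DNA, had 4.86 and 5.25 RPKM at 4 h, against 12.7 and 14.7 RPKM at 0 h (log2 −1.28 ± 0.12). Zfp715, with a KRAB core, had 4.51 and 4.59 RPKM at 4 h (log2 −1.46 ± 0.11 against 0 h).

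Of 14 genes listed for RNA and ribosome biology 12 were among the 45. At 4 h 1 of these 12 was higher and 11 lower, against 20.4% and 55.9% of all genes. Their median was −0.59, near that of all 45 Zfp genes (−0.61), against −0.39 over all genes. At 6 h 1 was higher and 10 lower, against 21.8% and 59.5%. Zfp207 was the one that rose. Zfp706, a protein of 76 residues, had 11.9 and 13.1 RPKM at 4 h, against 38.7 and 23.1 RPKM at 0 h (log2 −1.20 ± 0.19). Zfp512 had 2.04 and 2.02 RPKM at 4 h, against 5.62 and 6.65 RPKM at 0 h (log2 −1.23 ± 0.14). In both genes the 4 h libraries lay under those of 0 h. Smaller falls at 4 h were found in Zfp638 (log2 −0.87 ± 0.13), a nuclear matrix protein that silences unintegrated retroviral DNA, Zfp830 (−0.74 ± 0.15), a protein of the spliceosome, and Zfp326 (−0.66 ± 0.13), a subunit of a complex that links RNA polymerase II to splicing. The same held for Zfp330 (−0.61 ± 0.13), a nucleolar protein, Zfp277 (−0.58 ± 0.12), Zfp385a (−0.43 ± 0.13), which binds mRNA, Zfp106 (−0.38 ± 0.12), an RNA-binding protein needed by motor neurons, and Zfp593 (−0.34 ± 0.13), whose yeast counterpart Bud20 helps export the large ribosomal subunit. The calls of Zfp106, Zfp385a and Zfp593 were lost without replicate A of 4 h, that of Zfp106 also without replicate B of 0 h, those of Zfp385a and Zfp593 also without replicate A of 0 h, and that of Zfp385a also on median centring.

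Of 28 genes listed for transcription and chromatin without a KRAB core, 14 were among the 45. At 1 h 3 of these 14 were higher and 4 lower (background 6.53% and 12.2%). For 2 h the counts were 3 and 5 (13.3% and 42%), for 4 h 1 and 9 (20.4% and 55.9%), and for 6 h 2 and 9 (21.8% and 59.5%). The higher ones at 1 h were Zfp263, Zfp703 and Zfp516, and at 4 h Zfp281. Zfp24, which like Zfp263 has a SCAN domain, had 9.12 and 7.08 RPKM at 1 h, against 14.9 and 15.0 RPKM at 0 h (log2 −0.82 ± 0.12), and stayed between 7.08 and 9.12 RPKM in all later libraries. Zfp148, a GC-box factor, was lower at 2 h (log2 −0.73 ± 0.12), 4 h (−0.86 ± 0.12) and 6 h (−0.93 ± 0.12). Zfp292 was lower at 2 h (−0.81 ± 0.14) and 4 h (−0.81 ± 0.14). Zfp143, an activator bound at many promoters, was called only at 1 h (−0.46 ± 0.14), and that call was lost on median centring and without any of the 4 libraries compared. Zfp592 was lower at all 4 times (log2 −0.33 to −0.63), and Zfp384 at 4 h (−0.58 ± 0.14) and 6 h (−0.35 ± 0.14), but on median centring the 6 h change was 0.01 for Zfp592 and 0.04 for Zfp384, and neither was called. The 2 h call of Zfp592 was lost on median centring as well (−0.20) and without replicate B of 0 h or either replicate of 2 h, its 1 h call without replicate B of 0 h or of 1 h, and its 6 h call without replicate B of 0 h or A of 6 h. Zfp335, which acts in neural progenitors and T cells, was called at no time (log2 −0.07 to 0.17), and Zfp653 only at 6 h (−0.50 ± 0.16), a call lost on median centring and without replicate A of 0 h or of 6 h.

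By finger number the median change at 4 h was −0.62 for the 14 genes with 1 to 4 fingers, −0.58 for the 17 with 5 to 9 and −0.56 for the 12 with 10 or more. Genes of a class spread much more than the classes did, with changes from −1.49 to 2.43 among those with 5 to 9 fingers. A wider finger pattern (2 to 5, 12 to 13 and 3 to 6 residues) added 1 finger each in Zfp277, Zfp326, Zfp451 and Zfp592.

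**Figure D3:**
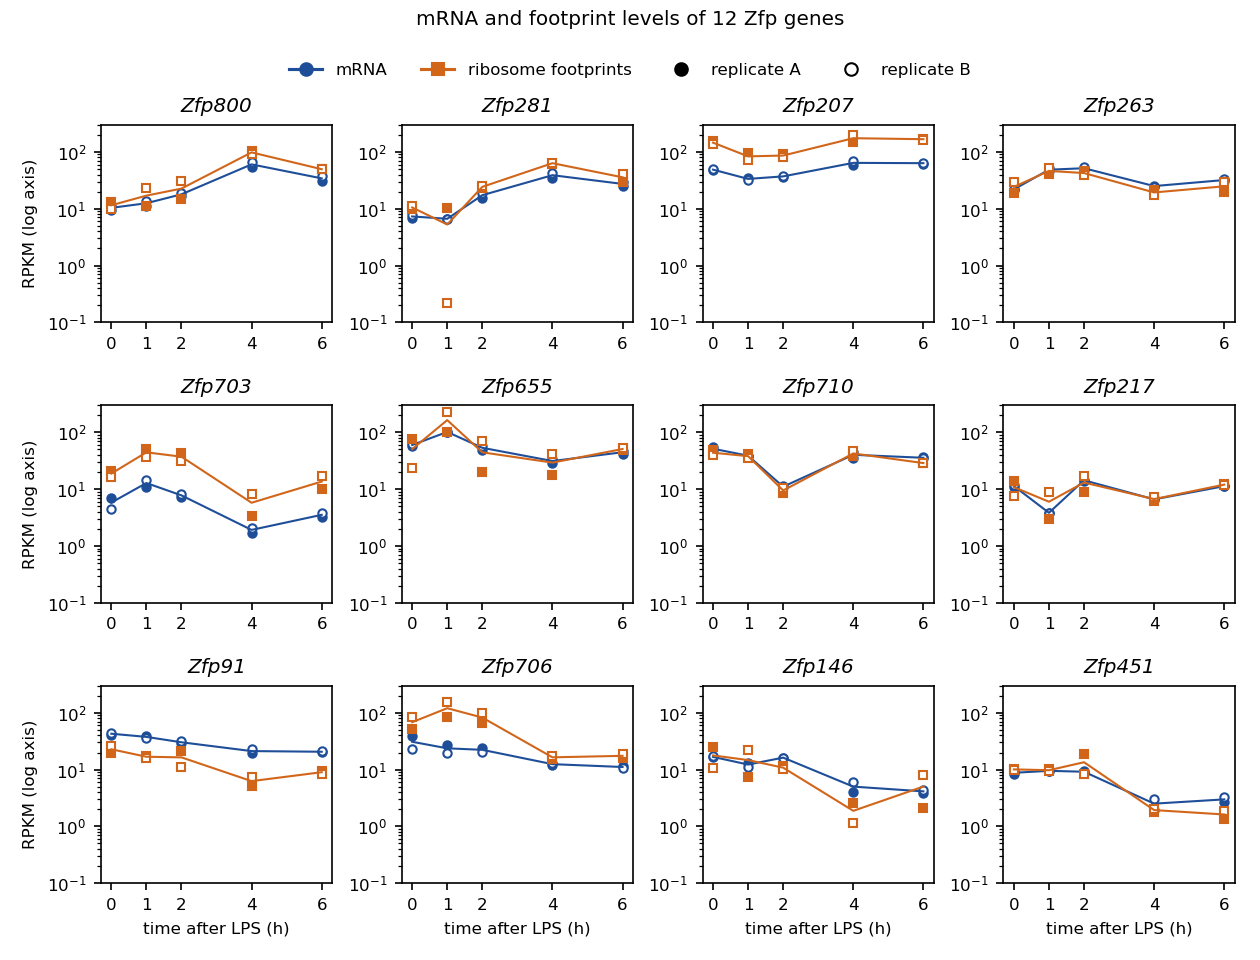
mRNA (blue circles) and footprint (orange squares) levels in RPKM on a log axis for 12 Zfp genes over 0 to 6 h of LPS, with filled symbols for replicate A, open symbols for replicate B and lines through the mean of both. Zfp800 and Zfp281 peak at 4 h, Zfp703 at 1 h, Zfp710 has its lowest point at 2 h, and Zfp146 and Zfp451 are low at 4 and 6 h.

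Ribosome footprints were tested on the 19 genes with a mean of at least 10 RPKM. At 1 h 0 were higher and 0 lower by limma (5 at an unadjusted p under 0.05), against 2.94% and 0.322% of all genes tested. At 2 h 0 were higher and 1 lower, against 5.65% and 4.85%. At 4 h 2 were higher and 4 lower, against 11.7% and 23.5%. At 6 h 1 was higher and 2 lower, against 12.8% and 36%. The 1 h count of lower genes was 4 without replicate A of 1 h, and the 6 h count 4 without either replicate of 1 h and 1 without either replicate of 0 h or 4 h or replicate A of 6 h. At 4 h the 2 higher became 1 without any replicate of 0, 2 or 4 h, and the 4 lower became 2 without either replicate of 0 h or replicate A of 4 h. With each library centred on its median, 2 were higher and 3 lower at 4 h (788 and 685 of all genes), and 2 and 1 at 6 h (1004 and 945).

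Zfp800 RPFs had 13.3 and 9.73 RPKM at 0 h, 11 and 23.0 after 1 h, 15.1 and 30.1 after 2 h, 103 and 93.4 after 4 h and 49.4 and 49.8 after 6 h. They were 7.99-fold higher at 4 h (log2 3.0 ± 0.43) and 4.09-fold higher at 6 h (log2 2.03 ± 0.43) than at 0 h, and the libraries of both times lay above all others. Zfp281 RPFs had 61.6 and 65.0 RPKM at 4 h, against 9.81 and 11.2 RPKM at 0 h (log2 2.48 ± 0.80, limma adjusted p = 0.0352). This call was lost with 0.1 RPKM added in place of 1 (log2 2.58), without the mean-variance trend (2.48) and without either replicate of 0, 2 or 4 h (2.40 to 2.57). In replicate B of 1 h Zfp281 stood at 0.218 RPKM, which is 1 read, against 10.3 RPKM in replicate A.

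Zfp706 RPFs had 51.3 and 85.4 RPKM at 0 h, 83.3 and 158 after 1 h, 67.1 and 97.8 after 2 h, 15.2 and 17.7 after 4 h and 16.0 and 18.9 after 6 h. They were 0.259-fold at 4 h (log2 −1.95 ± 0.39) and 0.274-fold at 6 h (log2 −1.87 ± 0.39), and these libraries lay under all others. Few reads stood behind these Zfp706 values, 12 and 8 at 4 h and 2 and 11 at 6 h, against 15 and 45 at 0 h. Zfp710 RPFs had 8.48 and 10.5 RPKM at 2 h, against 48.1 and 39.6 RPKM at 0 h (log2 −2.10 ± 0.31, limma adjusted p = 0.00157), a dip beside that of its mRNA (log2 −2.12). Zfp91 RPFs had 5.20 and 7.33 RPKM at 4 h, against 19.9 and 25.6 RPKM at 0 h (log2 −1.72 ± 0.42), and were lower at 6 h as well (log2 −1.24 ± 0.42). The Zfp91 call at 4 h was lost without replicate B of 0 h or A of 4 h, and that at 6 h on median centring and without either replicate of 0, 4 or 6 h.

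Zfp146 RPFs had 2.62 and 1.14 RPKM at 4 h, which are 8 and 2 reads, against 24.7 and 10.8 RPKM at 0 h, which are 28 and 22 reads (log2 −2.64 ± 0.68). That call was lost without replicate A of 0 h or replicate B of 4 h. Zfp703 RPFs had 3.38 and 8.15 RPKM at 4 h, against 21.3 and 16.4 RPKM at 0 h (log2 −1.64 ± 0.46), and the call was lost on median centring and without either replicate of 0 h or replicate A of 4 h. At 1 h Zfp703 had 51.9 and 37.1 RPKM, above both libraries of 0 h but not called. The RPFs of Zfp319, at 26.4 and 24.1 RPKM at 4 h, against 11.5 and 8.37 RPKM at 0 h, were not called either, nor were those of Zfp207 and Zfp263 at any time.

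**Figure D4:**
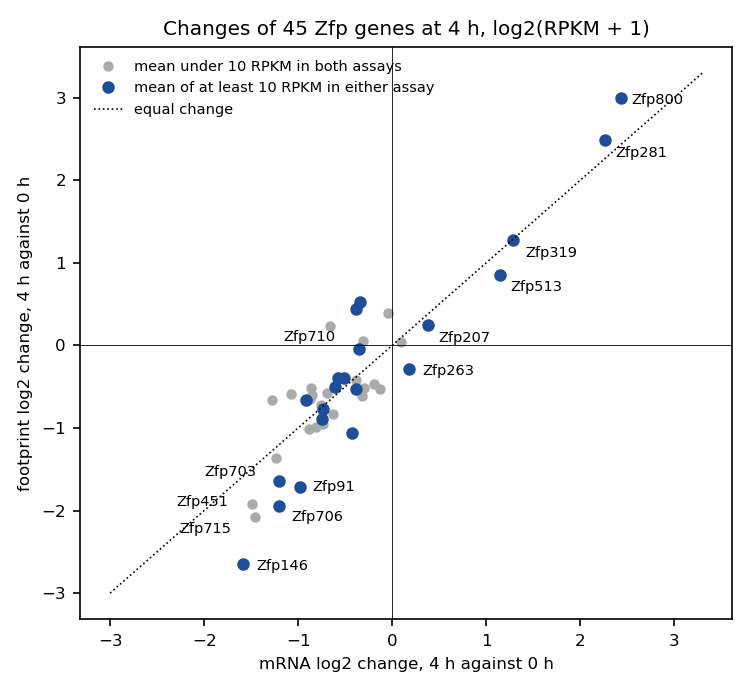
Log2 change at 4 h against 0 h of mRNA (x axis) and ribosome footprints (y axis) for 45 Zfp genes, in blue where the mean is at least 10 RPKM in either assay and in grey otherwise, with the line of equal change dotted. Zfp800 and Zfp281 lie at the upper right with 2.43 and 2.26 in mRNA and 3.0 and 2.48 in footprints, and Zfp146 at the lower left with −1.58 and −2.64.

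Apparent translation efficiency (TE), the ratio of RPF to mRNA RPKM of the same replicate, was compared in the 13 genes past the filter in both assays. Of these, 0 were called at 1, 2, 4 or 6 h by limma, with 0 at an unadjusted p under 0.05 in each comparison. The background was 0% of 4621 genes in each of the 4 comparisons, of which 305, 317, 339 and 558 had an unadjusted p under 0.05. As this test called no gene at all, 0 of 13 does not show that TE stayed unchanged. The study compared adjacent times by another method (Babel) and did report mRNAs with TE changes. The 3 smallest p-values at 1 h belonged to Zfp706 (log2 1.12 ± 0.55), Zfp330 (−1.24 ± 0.63) and Zfp281 (−1.51 ± 0.82). In replicate B of 1 h Zfp330 and Zfp281 had only 4 and 1 footprint reads, against 23 and 47 in replicate A. At 2 h the 3 smallest p-values were those of Zfp207 (−0.36 ± 0.21), Zfp871 (0.40 ± 0.26) and Zfp706 (0.70 ± 0.55). At 4 h they were those of Zfp91 (−0.73 ± 0.38), Zfp146 (−1.06 ± 0.72) and Zfp800 (0.57 ± 0.39), and at 6 h those of Zfp871 (0.51 ± 0.26), Zfp263 (−0.49 ± 0.33) and Zfp330 (−0.81 ± 0.63). The standard errors of these genes ran from 0.21 to 0.82. Without replicate A of 1 h, 1 gene was called at 1 h.

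At 0 h the median TE of the 13 was 1.07, against 1.66 over all 4621 genes, and 10 of the 13 lay under that median. Over all genes with no filter, 36 of the 45 lay under the all-gene median at 0 h, and 29 to 35 of the 45 did after LPS. Zfp91 stood at percentile 2.94 of TE at 0 h with 0.529 footprint RPKM per mRNA RPKM, Zfp655 at 7.05 with 0.714, and Zfp710 at 11.3 with 0.848. At the other end Zfp207 stood at percentile 88.2 with 2.98, Zfp706 at 71.8 with 2.21 and Zfp622 at 51.7 with 1.70. The other 7 lay between percentiles 16.1 and 39.4. These values are geometric means of both replicates, and 2 of them rest on replicates far apart, as Zfp655 had 1.33 in A and 0.383 in B and Zfp706 had 1.33 in A and 3.70 in B, so that their places in the order are uncertain.

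Zfp36 is induced by LPS and binds AU-rich elements in the 3′ untranslated region (UTR) of mRNAs, and CLIP-seq of V5-tagged Zfp36 at 4 h of LPS (2 CLIP-seq libraries from Zfp36-V5 knock-in BMDMs, 1 input) gave a deposited list of 280 mRNAs with binding peaks. Of the 45 Zfp genes 0 were in that list, against 133 of the 6397 genes of the table (2.08%). At so low a share 0 of 45 is near the background, and most of these mRNAs were scarce (median 8.09 against 20.9 RPKM). The 0 therefore does not show a lack of binding. The core of the element, UAUUUAU, was found in the longest RefSeq 3′ UTR of 18 of the 45 genes (40%), against 28.4% of 6208 genes with a 3′ UTR. The UTRs of the 45 were also longer, with a median of 1483 nt against 1036 nt. Per kilobase of UTR there were 0.329 matches in the Zfp genes and 0.293 in all genes, and 2.28 against 1.89 for AUUUA. A match is a description of letters and not a bound site. The matches of 6 genes described above are shown, to set the element beside courses of both directions, as RNA, 5′ to 3′, with UAUUUAU in capitals, from the RefSeq assembly GRCm38, at chr1:136630134-136630160 and chr1:136630280-136630306 (Zfp281, plus strand), chr6:28241134-28241160 (Zfp800, minus strand), chr2:170108765-170108791 and chr2:170108700-170108726 (Zfp217, minus strand), chr8:26980218-26980244 (Zfp703, plus strand), chr7:30161153-30161179 (Zfp146, minus strand) and chr19:12769224-12769250 (Zfp91, minus strand).
Zfp281 at 2177 of 2424 nt: cguuuuauugUAUUUAUaauguauuuu
Zfp281 at 2323 of 2424 nt: uuagggagauUAUUUAUugaggcuuua
Zfp800 at 507 of 1726 nt: gccuacugaaUAUUUAUaauuauuuga
Zfp217 at 1900 of 2038 nt: uuuguuaaugUAUUUAUuucauuccag
Zfp217 at 1965 of 2038 nt: agacaugcuuUAUUUAUgauauauuuc
Zfp703 at 1669 of 2903 nt: ccggacugugUAUUUAUuuacuauaau
Zfp146 at 568 of 1250 nt: uucucaugagUAUUUAUgcucaggagg
Zfp91 at 799 of 3100 nt: ugagauuccuUAUUUAUuaauggaaag

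The shown matches lie in mRNAs that rose (Zfp281, Zfp800), dipped (Zfp217), rose and then fell (Zfp703) and fell (Zfp146, Zfp91), and Zfp710 and Zfp451 had 0 matches. In promoters, taken from RefSeq (GRCm38.p6) as 250 bases before to 50 after the start, 39 of the 45 genes had an entry. Their median GC content was 59.7%, against 61.3% over 5064 genes of the table, with a median of 20 against 22 CpG. TATAAA on the strand of the gene was found in 0 of 39, against 4.25%, and an NF-kB type motif (GGG, any 2 bases, TTTCC, on either strand) in 0 of 39, against 1.78%. Absence of these letters says nothing about the factors.

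Some of the genes are neighbours. Starts within 500 kb of each other were found for Zfp146 and Zfp382 on chromosome 7, Zfp512 and Zfp513 on chromosome 5, Zfp871 and Zfp952 on chromosome 17, and Zfp236 and Zfp516. Zfp871 and Zfp952, both with a KRAB core, shared the dip at 1 h (log2 −0.84 and −1.19) and were both higher at 2 h than at 1 h (0.77 and 1.02). Zfp512 and Zfp513 moved apart, with log2 −1.23 and 1.14 at 4 h. Zfp146 and Zfp382 also differed, with log2 −1.58 and −0.19 at 4 h, although both were lower at 6 h (−1.79 and −1.27).

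Genes that work with KRAB proteins or carry other zinc finger names were counted in the same fit with no filter. Of 36 listed KRAB corepressor and heterochromatin genes 29 were in the table, and 0 of these were higher and 6 lower at 1 h, with 2 and 19 for 2 h and 7 and 20 for both 4 h and 6 h. The shares of lower genes over the table were 12.2%, 42%, 55.9% and 59.5% at 1, 2, 4 and 6 h, and those of higher genes 6.53%, 13.3%, 20.4% and 21.8%. The median changes of the 29 were −0.25, −0.43, −0.64 and −0.90. Daxx, a chaperone of histone H3.3, stood out with 237 and 288 RPKM at 4 h, against 16.4 and 16.1 RPKM at 0 h (log2 3.92 ± 0.12), and Dnmt1, the maintenance DNA methyltransferase, had 10.8 and 12.7 RPKM at 4 h, against 48.2 and 49.8 RPKM at 0 h (log2 −1.97 ± 0.12). Of 10 Zbtb genes 1 was higher and 9 lower at 4 h, of 7 Klf genes 3 and 4, and of 5 Zmym or Zmynd genes 0 and 5, against the same 20.4% and 55.9% of all genes. Of 13 Zc3h genes, whose fingers are of the CCCH type and often bind RNA, 6 were higher and 3 lower at 4 h, with a median of 0.11. The single Zkscan and Znf genes were higher at 4 h, and the single Zscan and Zhx genes lower.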

How the data were processed

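RNA-seq and Ribo-seq libraries of BMDMs came from 5 time points with 2 replicates each, 10 libraries per assay. The study calls the replicates biological, and p-values measure the spread between them. The authors trimmed reads, removed those of rRNA, tRNA and mitochondria, mapped the remainder by TopHat (mm10, RefSeq), and deposited HTSeq counts only as RPKM, for 6397 genes, so no count test was run. Reads behind an RPF value were recovered from the RPKM and RefSeq coding lengths, with the best fitting length for each of the 45 genes. For CLIP-seq the authors called peaks in 2 libraries over the input, merged them, and deposited a p-value and a fold for 1 peak per mRNA. A deposited table of p-values from the authors' own comparisons was not used.

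The RPKM were analysed as log2(RPKM + 1), on which fold changes understate those of low genes. For each assay, limma 3.58.1 (R 4.3.3) with a trend used all 10 libraries, time as the only term and 5 residual degrees of freedom. A mean of 10 RPKM was required, and p-values were adjusted by Benjamini-Hochberg over all genes tested, at 0.05. Values of genes under that mean, and counts of 45, come from the fit with no filter, which was extended to all alternatives after seeing the data. TE was log2 of (RPF RPKM + 1) over (mRNA RPKM + 1). The script was tested on simulated data.

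All 45 genes may be named. Full values are for the 5 most abundant, for up to 5 higher and 5 lower genes per comparison with 0 h by size of change and without overlap, for the 3 smallest p-values of TE, and for genes with a listed role. The genes, lists and alternatives were chosen with earlier results of these data known. Alternatives were the value added, the filter, centring, a replicate block, no trend, library weights and each library left out. Protein features were computed from RefSeq coding sequences with Biopython 1.88 and pysam 0.24.0, and figures with matplotlib 3.10.9. Reads of near-identical or overlapping genes may be shared between them.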

Additional observations from a re-analysis of the deposited data

Results flagged for a closer look

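5 changes turned direction between neighbouring time points, with both changes against 0 h and the change between the times called by limma in the fit with no filter. The share of such turns over all genes was not worked out, so whether 5 is many is not known. Zfp217 mRNA was lower at 1 h (log2 −1.35) and higher at 2 h (0.31) than at 0 h, a difference of 1.66 ± 0.11 (SE), and lower again at 4 h (−0.70), a difference of −1.01 ± 0.11 against 2 h. Zfp382 was lower at 1 h (−0.41) and higher at 2 h (0.45), a difference of 0.86 ± 0.13. Zfp131 was higher at 2 h (0.49) and lower at 4 h (−0.39), a difference of −0.87 ± 0.12. Zfp207 was lower at 2 h (−0.39) and higher at 4 h (0.39), a difference of 0.77 ± 0.11. Each turn rests on a call against 0 h that was lost with 1 library left out. For Zfp382 the 2 h call was lost without replicate A of 0 h (0.38) or B of 2 h (0.39), and the 1 h call without any of the 4 libraries compared (−0.48 to −0.34). For Zfp217 the 2 h call was lost without replicate A of 0 h or either replicate of 2 h (0.28 to 0.33), for Zfp131 the 4 h call without replicate A of 4 h (−0.25), and for Zfp207 the 2 h call without replicate A of 2 h (−0.37). The comparisons share the 0 h libraries, and causes were not tested.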

How the results depend on the processing

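Calls for single genes kept their direction in all but 3 cases, which were 6 h mRNA changes under median centring (Zfp26 0.032, Zfp384 0.035 and Zfp592 0.0094, on the log2 scale). A call was lost under at least 1 alternative by 17 of 67 changes tested in mRNA with the filter, 5 of 10 in RPFs, and 25 of 80 in mRNA of genes under the filter. Counts moved most with the filter on low values. Shares over all genes were worked out only for the filter of 10 RPKM, no filter and median centring. Counts under the other alternatives therefore show how calls moved, and not whether they exceed a background. With no filter (counts of 45) and with a mean of at least 5 RPKM, lower mRNAs numbered 16 and 11 after 1 h, 16 and 11 for 2 h, 33 and 27 for 4 h, 34 and 26 for 6 h. Higher ones at 2 h numbered 7 and 7. With no filter 5 were higher at 4 h. For the steps between times the same settings gave 9 and 7 higher and 12 and 9 lower (2 h against 1 h), 24 and 22 lower (4 h against 2 h) and 5 and 5 higher (6 h against 4 h), and with no filter 7 were higher (4 h against 2 h) and 4 lower (6 h against 4 h). The 5 genes at 10 RPKM in every library gave 1 lower at 1 h, 1 higher and 1 lower at 2 h, 1 higher and 3 lower at 4 h, 2 higher and 3 lower at 6 h, 0 higher for 2 h against 1 h, 1 higher and 4 lower for 4 h against 2 h, and 0 lower for 6 h against 4 h, where fewer genes were tested. Median centring left 7 lower mRNAs at 6 h, and library weights 1 higher for 6 h against 4 h.

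For RPFs, no filter (counts of 45) and a mean of at least 5 RPKM gave 3 and 3 lower at 2 h and 6 and 6 at 6 h. With no filter these are 6.67% of the 45 at 2 h and 13.3% at 6 h. The shares over all genes were 4.25% and 34%, so the 6 h share lay under the background. The genes at 10 RPKM in every library gave 0 lower at 2 h, 0 higher and 1 lower at 4 h, and 0 higher and 1 lower at 6 h. At 4 h 1 was higher with 0.1 RPKM added and 1 without the mean-variance trend. At 6 h 2 were higher with 5 RPKM added, 2 with median centring and 2 with library weights, and 1 was lower with centring and 4 with library weights. Causes were not tested beyond the number of genes or samples.

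Leaving out 1 library in turn gave 3 to 4 higher mRNAs at 1 h (lower, 2 to 4), 4 in every case at 2 h (lower, 2 to 4), 3 in every case at 4 h (lower, 7 to 11), and 4 in every case at 6 h (lower, 10 to 11). It gave 2 to 4 higher for 2 h against 1 h (lower, 2 to 4), 4 in every case for 4 h against 2 h (lower, 8 to 10), and 1 to 2 for 6 h against 4 h (lower, 1 to 6). Higher RPFs numbered 0 at 1 h (lower, 0 to 4), 0 to 1 at 2 h (lower, 1 to 2), 1 to 2 at 4 h (lower, 2 to 4), and 1 to 2 at 6 h (lower, 1 to 4). For TE there were 0 to 1 calls at 1 h (1 without replicate A of 1 h) and 0 later. With a replicate block 4 mRNAs were higher and 4 lower at 1 h, 11 were lower at 4 h, every other count lay within 1.5 times its value, and no called gene named here lost its call. The labels do not say that a letter marks a shared culture. The A minus B differences of 2 time points correlated at 0.066 to 0.459 in mRNA (over 0.1 in 9 of 10 pairs of times, short of the criterion of all 10), a hint from the data that mRNA libraries of a letter deviate together, and at −0.023 to 0.025 in RPFs (0 of 10), so the block was kept as an alternative. RPF depth limits the low genes most, as 10 of the 45 had a median under 20 reads.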

Other observations

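Zfp595, a Zfp gene outside the RPKM table and so not among the 45, was in the list of Zfp36 binding peaks, and was looked up after that list was seen. Its peak lay at chr13:67331451-67331500 (mm10), with a deposited fold of 4.36 over the input, and these 50 bases held 0 matches to UAUUUAU on either strand. Zfp628 (1.43 to 2.23 RPKM over the 10 libraries) and Zfp335 (3.15 to 4.24 RPKM) had no called mRNA change in any of the comparisons made.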
